A study of Mus musculus with 8 samples.

Results

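Aminoacyl-tRNA synthetases join each amino acid to its transfer RNA, and 36 genes for these enzymes, chosen by name, were all found by symbol among the 11789 genes of the deposited table. Of these, 20 encode the cytosolic enzymes and 16, whose names end in 2, the mitochondrial enzymes. The tissue was whole pancreas of mice aged 6 weeks, with 1 RNA sequencing library per mouse. The 4 libraries labelled Daxxfl/flPdx1-CreTg, called DC here, come from mice with floxed alleles of Daxx, a histone chaperone gene, and a Cre transgene driven by the Pdx1 promoter. The other 4 libraries are labelled wild type (WT). The Pdx1 promoter drives Cre in the embryonic cells that give rise to pancreatic epithelium, exocrine and endocrine, and vessels, stroma and blood cells of the organ keep an intact Daxx gene. No group carries Pdx1-Cre or the floxed alleles alone, and what the transgene or the alleles do on their own cannot be told apart from the loss of Daxx. In whole tissue, fewer cells of a type and less RNA per cell cannot be told apart either.

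Cytosolic synthetases charge the transfer RNAs used by ribosomes in the cytoplasm and on the endoplasmic reticulum, where pancreatic acinar cells make their digestive enzymes. Several of them sit in a large multisynthetase complex held together by the scaffold proteins Aimp1, Aimp2 and Eef1e1. Mitochondrial synthetases are made from nuclear genes, imported, and used only for the few proteins that the mitochondrial genome encodes. Gars and Kars serve both compartments from 1 gene each. When uncharged transfer RNA or misfolded protein accumulates, kinases phosphorylate eIF2 and the transcription factor ATF4 is made, which induces many cytosolic synthetase genes together with genes of amino acid supply. ATF4 with a C/EBP partner binds a composite element whose core is often written TGATGNAA.

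The promoters of the synthetase genes were read for this core because cytosolic synthetase genes are known targets of ATF4. RefSeq promoter windows (GRCm38.p6, 250 bases before to 50 after each annotated start) were matched for 27 of the 36 genes, 13 cytosolic and 14 mitochondrial. Windows were searched on both strands for TGATGNAA, in which N is any base. The core was found in 5 of the 13 cytosolic genes (38.5%) and in 0 of the 14 mitochondrial genes, against 3.97% of all 32851 windows of the same length. All 5 genes, Aars, Gars, Iars, Tars and Yars, are on the list of 13 cytosolic synthetases reported as ATF4 targets, of which 8 had a window. A match is a description of letters and not a shown binding site. The match nearest the start of each of the 5 genes is given in 30 bases, 5′ to 3′ on the strand of the gene, with the core in capitals. A core on the opposite strand of the gene reads TTNCATCA.
Aars, first base of the core at 10 from the start, chr8:111033840-111033869, plus strand: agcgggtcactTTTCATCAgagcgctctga
Gars, core at -30, chr6:55037960-55037989, plus strand: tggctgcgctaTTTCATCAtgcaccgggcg
Iars, core at 8, chr13:49682126-49682155, plus strand: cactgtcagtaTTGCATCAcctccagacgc
Tars, core at -15, chr15:11399655-11399684, minus strand: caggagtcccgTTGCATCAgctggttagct
Yars, core at 4, chr4:129189895-129189924, plus strand: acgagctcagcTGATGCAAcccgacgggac
Negative positions lie before the start and positive ones after it, counted from 1 at the first transcribed base. Of these 5 cores, that of Yars runs along the gene's own strand and the other 4 run against it. The 250 bases before the start of Gars, the glycine enzyme gene with the second highest cytosolic level per length, show the core close to the start.
Gars, chr6:55037751-55038000, plus strand: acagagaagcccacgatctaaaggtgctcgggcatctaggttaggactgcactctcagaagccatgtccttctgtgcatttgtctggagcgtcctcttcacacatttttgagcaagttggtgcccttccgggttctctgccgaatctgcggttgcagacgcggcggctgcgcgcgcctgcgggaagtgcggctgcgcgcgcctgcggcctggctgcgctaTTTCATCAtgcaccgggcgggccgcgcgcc

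Values are the deposited normalized counts, which are read counts divided by 1 size factor per library. The libraries held 7721994 to 9736116 reads in DC and 7705789 to 10517508 in WT, and the 36 synthetase genes took 0.150% to 0.284% of them in DC and 0.139% to 0.196% in WT. Lars2, a mitochondrial member described below, alone made up 25.5% to 62.2% of the synthetase reads in DC and 18.5% to 50.6% in WT. Daxx had 26.8, 23.3, 29.2 and 32.5 normalized counts in DC replicates 1 to 4, against 39.7, 58.7, 46.7 and 45.2 in WT replicates 1 to 4, and its genotypes did not overlap. Its log2 fold change was -0.74 ± 0.20 (SE), with an exact permutation p of 0.0286 and a limma adjusted p of 0.9997. The labels do not name the floxed exons, and the count of the gene includes exons outside them. Of 23 acinar marker genes 22 were in the table and none of these was at 0 in any library, so the tissue carried its defining markers. Their summed level was 4812080 to 6761087 in DC and 5845240 to 6749917 in WT. Markers of islets varied more, from 1866 to 7944 in DC and from 2322 to 8268 in WT. Of the 22 acinar markers 19 had a log2 fold change below 0 in DC (median -0.12), as had 11 of the 14 tested islet markers (median -0.32), and none was called. Their part in the results below was not tested.

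Levels of different genes were compared as normalized counts per kilobase (kb) of annotated exon, averaged over all 8 libraries. Each cytosolic synthetase lay above the median of all tested genes, and most mitochondrial ones lay near or below it. The median cytosolic gene stood at 129.8 per kb, above 92.6% of the tested genes, with a range of 53.8 to 318. The median mitochondrial gene stood at 15.1 per kb, above 38.9% of them, against a median of 20.8 over all tested genes. Of the 16 mitochondrial genes, 7 were above that median. Without Lars2, which stands far apart and is described below, the mitochondrial range was 3.50 to 49.8 per kb, so that every other mitochondrial gene lay below every cytosolic gene.

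In each library the median cytosolic gene was several-fold above the median mitochondrial gene per kb. The ratio was 6.69, 7.83, 7.10 and 7.96 in DC replicates 1 to 4, against 7.63, 6.65, 8.44 and 9.04 in WT replicates 1 to 4. The genotypes overlapped in this ratio, with the lowest value in WT replicate 2 and the highest in WT replicate 4. Genes were paired by name, and 13 pairs had symbols that differ only by the final 2. The cytosolic gene was higher per kb in 12 of the 13 pairs, by a median of 8.38-fold over all 13. Farsa and Farsb with Fars2, and Eprs with Ears2 and Pars2, do not match by name and were not among these pairs. Wars was 60.3 times Wars2, the widest of these ratios, and Cars was 2.15 times Cars2, the narrowest of the 12. The phenylalanine genes, outside these pairs, were closer, with Farsa at 70.7, Farsb at 58.6 and Fars2 at 39.8 per kb. The exception was leucine, with Lars at 0.0790 times the level of Lars2.

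The cytosolic genes with the highest level per kb were Wars, Gars and Nars, the tryptophan, glycine and asparagine enzymes. Wars had 282 ± 62.4 in DC and 354 ± 80.1 in WT (normalized counts per kb, SD, n = 4 each), Gars had 273 ± 23.0 in DC and 291 ± 27.5 in WT, and Nars had 283 ± 29.3 in DC and 272 ± 59.3 in WT. The 3 genes lay within each other's spread, so their order is not firm. The lowest were Dars, the aspartate enzyme, with 54.5 ± 5.46 in DC and 53.2 ± 9.73 in WT, and Farsb and Farsa, which encode the beta and alpha subunits of the phenylalanine enzyme. Farsb had 56.9 ± 7.17 in DC and 60.2 ± 10.5 in WT and Farsa 70.1 ± 4.21 in DC and 71.3 ± 8.91 in WT, so the transcripts of the paired subunits were at similar levels per kb. Between these ends lay Mars, Kars, Eprs, Vars, Sars, Yars, Iars, Lars, Hars, Aars, Tars, Cars, Qars and Rars in falling order, from 209.8 per kb for Mars to 77.4 for Rars. Aars shares exon bases on its strand with Exosc6 in the annotation, so how reads there were assigned is uncertain. It was the 1 member of the 36 with such an overlap.

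Among the mitochondrial genes other than Lars2, the cysteine enzyme gene Cars2 was highest, with 55.5 ± 7.45 in DC and 44.1 ± 5.53 in WT (normalized counts per kb, SD, n = 4 each). Fars2, for phenylalanine, followed with 40.1 ± 4.96 in DC and 39.5 ± 10.8 in WT. Ears2, Tars2, Iars2, Rars2, Sars2, Hars2, Vars2, Yars2, Nars2 and Aars2 came next in falling order, from 37.5 to 13.6 per kb over all libraries. The lowest were Mars2, with 6.59 ± 1.31 in DC and 5.71 ± 2.01 in WT, Wars2, with 5.58 ± 1.22 in DC and 4.96 ± 1.63 in WT, and the proline enzyme gene Pars2, with 3.55 ± 0.371 in DC and 3.45 ± 1.21 in WT. Mars2 is annotated with 11294 bases of exon, the longest of the 36, which lowers its level per kb. Pars2 rested on 5 to 17 reads per library, so it is the least precisely measured member. Its values were 10.3, 9.996, 12.5 and 10.5 normalized counts in DC replicates 1 to 4, against 8.81, 6.52, 11.7 and 15.1 in WT replicates 1 to 4.

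**Figure D1:**
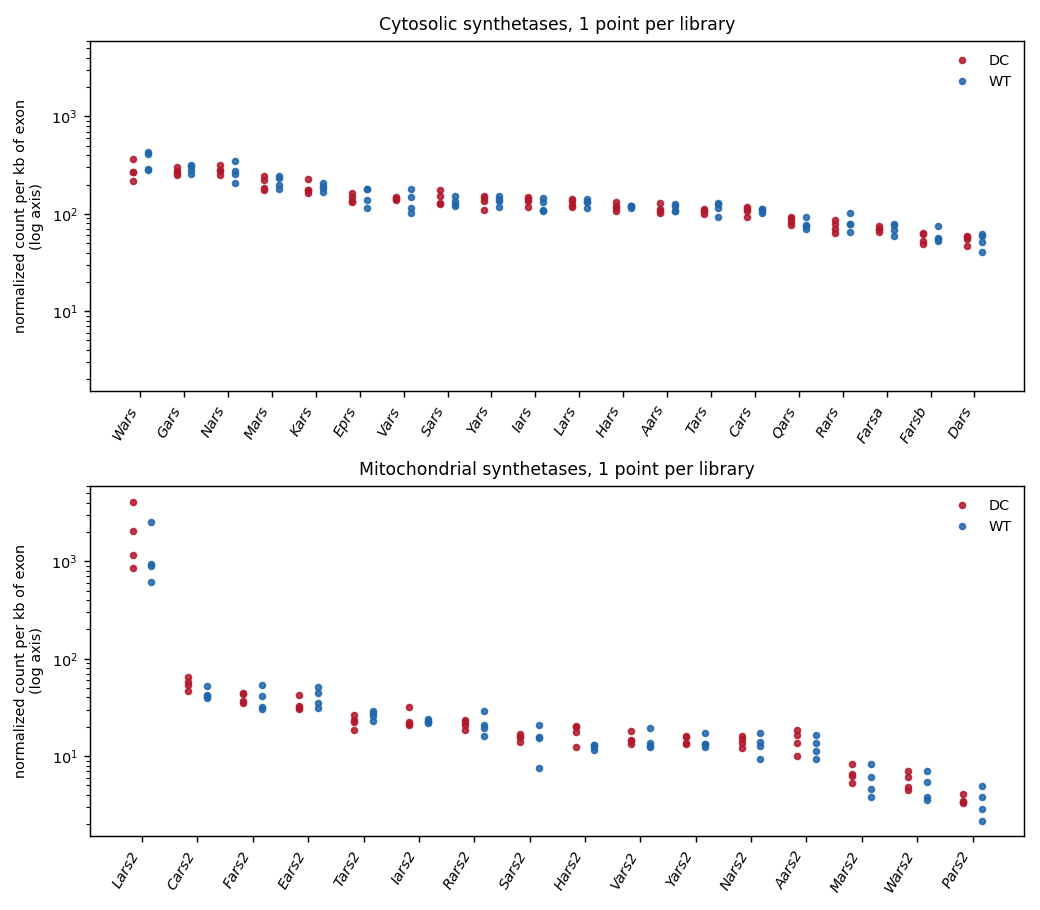
Normalized count per kilobase of exon (log axis) of the 20 cytosolic genes (upper panel) and 16 mitochondrial genes (lower panel), ordered by mean level, with 1 point per library and DC left of WT for each gene. Cytosolic genes lie between about 53.8 and 318 per kb on average, and apart from Lars2 the mitochondrial genes lie between 3.50 and 49.8.

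Cytosolic synthetases showed no called difference between DC and WT. The comparison was made with limma on log2(normalized count + 1) over the 10468 genes with a mean of at least 10, which all 36 members reached, and a gene was called at a Benjamini-Hochberg adjusted p under 0.05. None of the 20 cytosolic and none of the 16 mitochondrial genes was called, and limma called 0 of all 10468 genes, a background of 0%. The adjusted p was 0.9997 for each of the 36 members. At an unadjusted limma p under 0.05 there was 1 member of the 36 (2.78%), Hars2, higher in DC, against 2.88% of all tested genes in either direction and 1.32% higher in DC. edgeR called 0 of the 36 members and 0% of all genes, and had 2 members, Hars2 and Cars2, at an unadjusted p under 0.05, against 2.86% of all genes. DESeq2 called 0 of the 36 members and 0.00955% of all genes, and had 1 member, Hars2, at an unadjusted p under 0.05, against 2.09% of all genes. In limma, Cars2 joined Hars2 with TMM scaling, with equal library totals and with a minimum mean of 50. With 1 library left out, the unadjusted limma p of Wars was under 0.05 without DC replicate 1 or WT replicate 2 or 4. That of Lars2 was so without DC replicate 2 or WT replicate 2, and that of Cars2 without DC replicate 2 or WT replicate 3. No member was under 0.05 without DC replicate 3 or 4 or without WT replicate 1. For no member did the 4 DC values lie wholly above or wholly below the 4 WT values, against 1.87% of all tested genes, made of 0.831% higher and 1.04% lower in DC. The cytosolic log2 fold changes, DC minus WT, ran from -0.33 to 0.14, with 8 genes above 0 and 12 below. Their median was -0.019, close to the -0.0074 of all tested genes. With libraries scaled to equal totals the median of all genes moved to 0.11 and 19 of the 20 lay above 0, but 9 of 20 lay above that shifted median, as they did above the median of all genes under the deposited scaling. The count above 0 also moved with single libraries, to 4 without WT replicate 1 and 15 without WT replicate 3.

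The half-width of the 95% interval had a median of 0.27 log2 units (1.21-fold) over cytosolic genes and of 0.41 (1.33-fold) over mitochondrial genes. Within a genotype, the SD of a cytosolic gene over 4 libraries had a median of 0.18 log2 units, against 0.28 for mitochondrial genes and 0.27 for all tested genes, whose levels are lower than those of cytosolic synthetases. Hars, the cytosolic histidine enzyme gene, was the steadiest, with 215, 262, 227 and 241 normalized counts in DC replicates 1 to 4, against 228, 240.0, 237 and 238 in WT replicates 1 to 4. Its log2 fold change was 0.00028 with a 95% interval of -0.24 to 0.24. Only 1.74% of tested genes had a smaller SD within genotypes.

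The cytosolic gene with the smallest unadjusted p was Wars (ENSMUSG00000021266.16, chromosome 12, 108860030 to 108894174, GRCm38), which encodes the tryptophan enzyme and is known as an interferon-inducible gene. It stood at 1055, 776, 626 and 776 normalized counts in DC replicates 1 to 4, against 1192, 833, 1238 and 804 in WT replicates 1 to 4. The 3 libraries above 1000, DC replicate 1 and WT replicates 1 and 3, came from both genotypes, so the groups overlapped. Wars averaged 808 ± 179 in DC and 1017 ± 229.9 in WT (SD, n = 4 each). On the log2 scale the difference was -0.33 ± 0.17 (SE), and its 95% interval ran from -0.69 to 0.032, with a limma adjusted p of 0.9997 and an exact two-sided permutation p of 0.143, where 0.0286 is the smallest that 4 against 4 allows.

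Iars, the isoleucine enzyme gene and a member of the multisynthetase complex, had 525, 652, 605 and 626 normalized counts in DC replicates 1 to 4, against 489, 476, 643 and 589.6 in WT replicates 1 to 4. Its log2 fold change, the highest cytosolic value, was 0.14 ± 0.12 (SE), with the interval from -0.12 to 0.40 and an exact permutation p of 0.257. The lower WT values, in replicates 1 and 2, were below every DC value, and the other 2 WT values lay among the DC ones. Tars, for threonine, had 450.1, 432, 396 and 433 normalized counts in DC replicates 1 to 4, against 465, 373, 503 and 522 in WT replicates 1 to 4, with a log2 fold change of -0.11 ± 0.12 (SE). DC values of Tars were tightly grouped inside the wider WT range. Qars, for glutamine, had 248, 213, 232 and 257 normalized counts in DC replicates 1 to 4, against 194, 262, 213 and 211 in WT replicates 1 to 4, and Sars, for serine, had 550.2, 476, 455 and 640.4 normalized counts in DC replicates 1 to 4, against 463, 441, 562 and 492 in WT replicates 1 to 4. In both genes the groups overlapped, with log2 fold changes of 0.12 ± 0.13 (SE) and 0.11 ± 0.13 (SE).

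The abundant Gars had 592, 629.8, 660.3 and 721 normalized counts in DC replicates 1 to 4, against 612, 672, 731 and 759 in WT replicates 1 to 4 and a log2 fold change of -0.09 ± 0.11 (SE). Nars had 832, 816, 731 and 939.6 normalized counts in DC replicates 1 to 4, against 611, 747, 798 and 1028 in WT replicates 1 to 4. The lowest and the highest of its 8 values were both WT libraries, with every DC value between them. At the low end, Dars had 145, 141, 115 and 136 normalized counts in DC replicates 1 to 4, against 126, 99.1, 153 and 145 in WT replicates 1 to 4, with a log2 fold change of 0.049 ± 0.16 (SE). Farsa had 119, 127, 128 and 138 normalized counts in DC replicates 1 to 4, against 109, 141, 145 and 126 in WT replicates 1 to 4, and Farsb had 140.4, 107, 136 and 117 normalized counts in DC replicates 1 to 4, against 125, 116, 122 and 166 in WT replicates 1 to 4. The subunit genes of the phenylalanine enzyme had log2 fold changes of -0.019 ± 0.14 (SE) for Farsa and -0.073 ± 0.15 (SE) for Farsb. The exact permutation p was 0.343 for Gars, 0.686 for Nars, 0.771 for Dars, 0.857 for Farsa and 0.657 for Farsb. The other cytosolic genes, Aars, Cars, Eprs, Kars, Lars, Mars, Rars, Vars and Yars, overlapped between genotypes as well, with log2 fold changes from -0.10 for Rars to 0.11 for Vars. Vars, the valine enzyme gene, was narrow in DC and wide in WT, with 602, 588, 619.7 and 575 normalized counts in DC replicates 1 to 4, against 423, 618, 749.8 and 479 in WT replicates 1 to 4.

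Groups of cytosolic genes also stayed near 0. The 8 synthetases of the multisynthetase complex (Dars, Eprs, Iars, Kars, Lars, Mars, Qars and Rars) had 4 members above 0 and 4 below, with a median log2 fold change of -0.0087 and 0 calls. The 13 reported as ATF4 targets had a median of -0.022, with 5 above 0, and the 7 not so reported had a median of -0.019, with 3 above 0. The 5 genes with the TGATGNAA core printed above had a median of -0.04, made of Aars at -0.04, Gars at -0.09, Iars at 0.14, Tars at -0.11 and Yars at -0.022. None of these lists held a called gene, and no test compared the lists.

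Mitochondrial synthetases lay mostly above 0 in DC, with no call. Of the 16 genes 14 had a log2 fold change above 0 and 2, Ears2 and Tars2, below, against 48.1% of all tested genes above 0. The median was 0.10, against -0.0074 over all tested genes and -0.019 over the cytosolic members, and without Lars2 it was 0.091. Acinar and islet markers lay mostly below 0 in the same libraries, as given above. The size of the mitochondrial median depended on single WT libraries. It was 0.037 without WT replicate 1 and 0.19 without WT replicate 3. The count above 0 fell to 11 of 16 without WT replicate 2 or WT replicate 4. It fell to 12 of 16 without DC replicate 3 or WT replicate 1. The library medians of the deviation from each gene's mean were -0.034, -0.069, 0.14 and 0.13 log2 units in DC replicates 1 to 4, against -0.22, -0.089, 0.087 and -0.069 in WT replicates 1 to 4. The genotypes overlapped in these medians, and WT replicate 1 was the lowest of the 8. In 10 of the 13 pairs matched by name the mitochondrial gene had the higher fold change. The median difference was 0.13 log2 units, mitochondrial minus cytosolic. Members of a pair are measured in the same libraries and are not replicates of the condition.

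Hars2 (ENSMUSG00000019143.15, chromosome 18, 36783008 to 36792562), the mitochondrial histidine enzyme gene, had the smallest unadjusted p of all 36, at 0.0296 in limma. It stood at 67.1, 41.7, 58.3 and 67.2 normalized counts in DC replicates 1 to 4, against 41.4, 43.0, 39.0 and 43.4 in WT replicates 1 to 4. DC replicates 1, 3 and 4 were above every WT library, and DC replicate 2 lay within the WT range. Its average was 58.6 ± 12.0 in DC and 41.7 ± 2.02 in WT (SD, n = 4 each), from 33 to 65 reads per library. DC exceeded WT by 0.46 ± 0.19 (SE) log2 units (interval 0.052 to 0.86), with a limma adjusted p of 0.9997 and an exact permutation p of 0.0857. Hars2 and Hars overlap at their starts on opposite strands, and whether counting used the strand is not given, so reads there may not be told apart. The unadjusted p of Hars2 was 0.00952 to 0.0401 under the other scalings, pseudocounts, filters, covariate and tools tried. It was above 0.05 without DC replicate 1 (0.0865), 3 (0.0521) or 4 (0.0856) and without WT replicate 1 (0.0522) or 3 (0.0649), all unadjusted limma p-values.

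Cars2 (ENSMUSG00000056228.10, chromosome 8, 11513977 to 11550783), for cysteine, had 123, 89.1, 101 and 109 normalized counts in DC replicates 1 to 4, against 81.1, 75.6, 99.3 and 79.7 in WT replicates 1 to 4. WT replicate 3 lay within the DC range and the other 3 WT libraries were below every DC library. DC exceeded WT by 0.33 ± 0.15 (SE) log2 units (interval -0.0031 to 0.65), with an exact permutation p of 0.0571. Tars2, for threonine, had 97.0, 101, 116 and 79.8 normalized counts in DC replicates 1 to 4, against 100.5, 120.0, 127 and 113 in WT replicates 1 to 4, a log2 fold change of -0.23 ± 0.15 (SE). Ears2, whose enzyme charges the mitochondrial glutamate and glutamine transfer RNAs with glutamate, had 64.0, 67.5, 62.5 and 86.1 normalized counts in DC replicates 1 to 4, against 64.3, 71.7, 91.5 and 105 in WT replicates 1 to 4, a log2 fold change of -0.23 ± 0.18 (SE). Both genes overlapped between genotypes, with exact permutation p-values of 0.143 and 0.2.

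The members at the ends of the mitochondrial order overlapped between genotypes as well. Fars2 had 85.7, 82.5, 105 and 103 normalized counts in DC replicates 1 to 4, against 74.9, 127, 97.4 and 71.7 in WT replicates 1 to 4. Mars2, for methionine, had 74.3, 59.1, 69.8 and 94.5 normalized counts in DC replicates 1 to 4, against 52.0, 43.0, 68.2 and 94.7 in WT replicates 1 to 4. Wars2, for tryptophan, had 19.6, 26.7, 31.2 and 21.0 normalized counts in DC replicates 1 to 4, against 16.7, 15.7, 31.2 and 23.9 in WT replicates 1 to 4. Their log2 fold changes were 0.051 ± 0.19 (SE) for Fars2, 0.25 ± 0.23 (SE) for Mars2, 0.19 ± 0.28 (SE) for Wars2 and 0.091 ± 0.36 (SE) for Pars2, with exact permutation p-values of 0.8286, 0.371, 0.457 and 0.714 in the same order. The other mitochondrial genes, Aars2, Iars2, Nars2, Rars2, Sars2, Vars2 and Yars2, had log2 fold changes from 0.028 for Rars2 to 0.20 for Aars2. Each overlapped between genotypes.

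**Figure D2:**
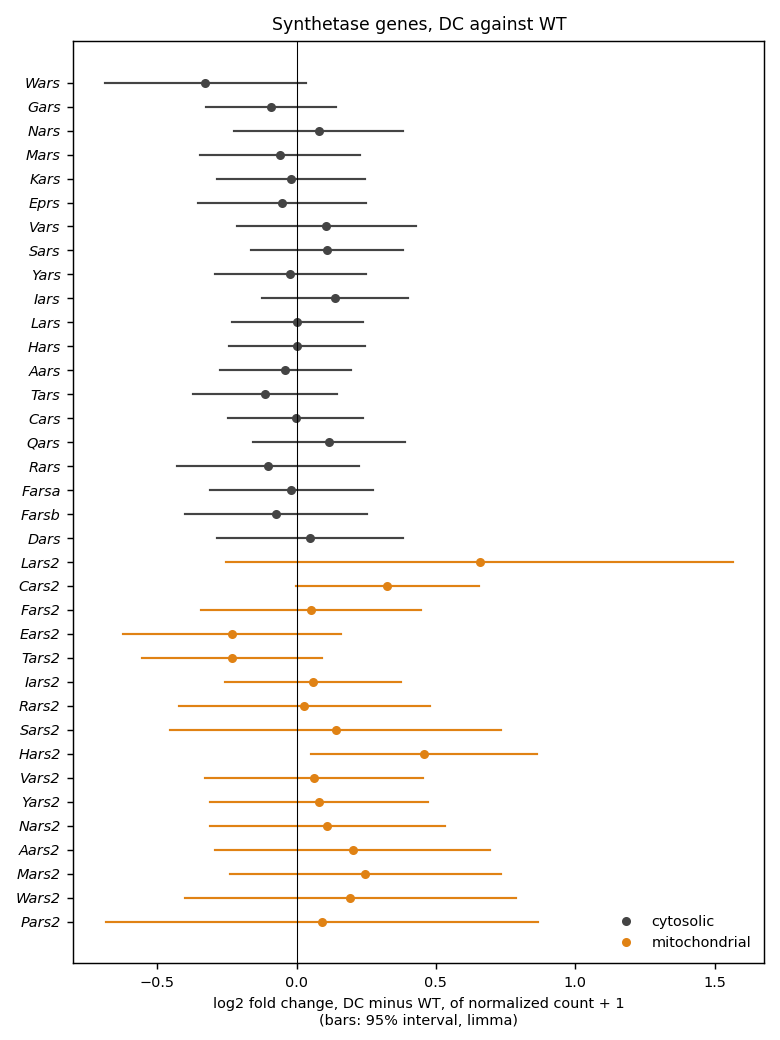
Log2 fold change, DC minus WT, on the log2(normalized count + 1) scale for each synthetase gene, with 95% intervals from limma, cytosolic genes above and mitochondrial genes below, each ordered by level per kb. The intervals include 0 for every gene except Hars2 (0.052 to 0.86), and Lars2 has the widest (-0.25 to 1.57).

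Lars2 (ENSMUSG00000035202.8, chromosome 9, 123366927 to 123462666), the mitochondrial leucine enzyme gene, stood apart from the other members in level and in spread. Its values were 7906, 3340.5, 15874 and 4499.8 normalized counts in DC replicates 1 to 4, against 3485, 9938, 3679.9 and 2395 in WT replicates 1 to 4. DC replicates 3 and 1 and WT replicate 2 were the 3 highest, so that each genotype held high and low libraries and the ranges overlapped. The highest library had 6.63 times the value of the lowest, whereas this ratio was 1.41 to 2.78 for the other 15 mitochondrial genes and 1.22 to 1.98 for the cytosolic genes. Its SD within genotypes, 0.94 log2 units, was larger than that of 98.9% of tested genes. Lars2 averaged 7905 ± 5655 in DC and 4875 ± 3423 in WT (SD, n = 4 each), with a log2 fold change of 0.66 ± 0.43 (SE), an interval of -0.25 to 1.57 and an exact permutation p of 0.371. Leaving out 1 library at a time moved that fold change between 0.23, without DC replicate 3, and 1.07, without WT replicate 2. A count per gene does not show where the reads lie. Whether all reads counted for Lars2 came from its transcript was not tested.

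Lars2 alone made up 78.8% to 94.0% of the summed mitochondrial synthetase level in DC and 71.6% to 91.3% in WT, so any sum over these genes follows it. With Lars2 the sum was 4238 to 16883 normalized counts in DC and 3344 to 10881 in WT. Without it the sum was 897 to 1076 in DC and 843 to 1021 in WT. The 3 libraries highest in Lars2 were also the 3 with the fewest reads, at 7721994 in DC replicate 1, 8643705 in DC replicate 3 and 7705789 in WT replicate 2, and the part of depth in the Lars2 level was not tested. Of the 10467 other tested genes, chosen after their values were seen, Notch3, a receptor gene of vascular smooth muscle and pericytes, and Cherp had the patterns most like it over the 8 libraries. On log2 values Pearson's r was 0.991 for Notch3 and 0.980 for Cherp, Spearman's rho was 0.929 and 0.952, and r without the 2 libraries farthest from the Lars2 median was 0.972 and 0.949. These are descriptions with no p, because the genes were picked as the highest of all. Notch3 had 84.6, 61.6, 126 and 67.2 normalized counts in DC replicates 1 to 4, against 56.4, 102, 57.5 and 50.5 in WT replicates 1 to 4, a narrower range than that of Lars2.

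Of the 10467 other tested genes, again chosen after their values were seen, the 3 most like Wars over the 8 libraries were Muc1, an epithelial mucin gene, and Reg3b and Reg3a, which encode C-type lectins induced by tissue injury. Reg3b had 2391, 1073, 252 and 816 normalized counts in DC replicates 1 to 4, against 3479, 698, 4734 and 868 in WT replicates 1 to 4. The 3 libraries highest in Wars were the 3 highest in Reg3b, and DC replicate 3 was lowest in both. Reg3b spanned a far wider range than Wars. Muc1 had 794, 636, 573 and 672 in DC replicates 1 to 4, against 846, 739.5, 866 and 677 in WT replicates 1 to 4. Pearson's r on log2 values was 0.976 for Muc1, 0.974 for Reg3b and 0.943 for Reg3a, Spearman's rho was 0.976, 0.833 and 0.929, and r without the 2 libraries farthest from the Wars median was 0.950, 0.939 and 0.841. No p is given for genes picked in this way, and each point carries the depth and composition of its library. Within DC and within WT alike, the library with the highest Wars also had the highest Reg3b.

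**Figure D3:**
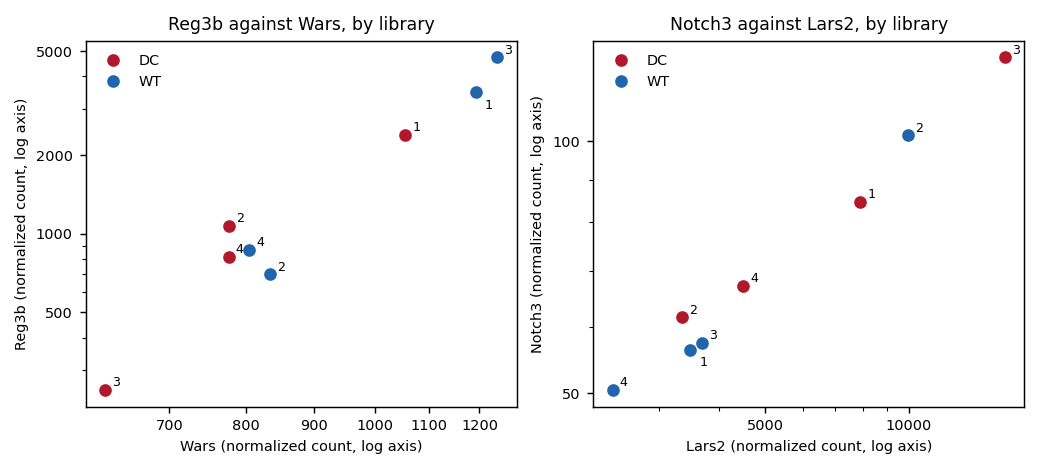
Reg3b against Wars (left) and Notch3 against Lars2 (right), in normalized counts on log axes, with 1 point per library coloured by genotype and numbered by replicate. DC and WT libraries mix along both relations, with WT replicate 3 highest in Wars and DC replicate 3 highest in Lars2.

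Genes that work with the synthetases held no call either. Of the 3 scaffold genes of the multisynthetase complex, Aimp1 averaged 70.6 ± 9.48 in DC and 69.4 ± 15.6 in WT and Eef1e1 22.2 ± 6.12 in DC and 24.4 ± 6.27 in WT normalized counts (SD, n = 4 each), and the list's median log2 fold change was -0.048. Of 9 mitochondrial partners, which act on transfer RNA or in mitochondrial translation, 4 lay above 0 and 5 below (median -0.066 log2 units). Gatc, a subunit of the amidotransferase that turns the glutamate loaded by Ears2 into glutamine, had 34.1, 35.8, 34.4 and 39.9 normalized counts in DC replicates 1 to 4, against 43.2, 40.4, 41.9 and 44.3 in WT replicates 1 to 4. All 4 DC values of Gatc were below all 4 WT values, the 1 gene of these 9 for which the genotypes did not overlap, against 1.04% of tested genes lower in this way. Its log2 fold change was -0.23 ± 0.18 (SE), with an exact permutation p of 0.0286, the smallest possible, and a limma adjusted p of 0.9997. Trnt1, which adds the last bases to every transfer RNA, averaged 38.8 ± 5.76 in DC and 33.6 ± 2.18 in WT. Of 4 tested proofreading and paralog genes 1 lay above 0, with Dtd1, a deacylase of mischarged transfer RNA, at 23.2 ± 3.43 in DC and 27.1 ± 4.60 in WT and the threonine enzyme paralog Tarsl2 at 38.8 ± 5.05 in DC and 42.7 ± 5.40 in WT. All 6 tested elongation factor genes lay above 0, from 0.015 to 0.086, and none was called, with 5 of 6 above 0 without DC replicate 1 or 4 or without WT replicate 2 or 4. Eef1b2 averaged 987 ± 64.6 in DC and 929.8 ± 48.4 in WT and Eif5a 1320.2 ± 25.7 in DC and 1257 ± 45.4 in WT.

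No tested gene of the wider ATF4 response, of which cytosolic synthetases are a known branch, was called. Of 32 listed genes 31 were in the table and 29 were tested, 12 of them above 0 and 17 below (median -0.017 log2 units). Atf3 and Ddit3, with means of 5.38 and 7.47 normalized counts over all libraries, fell below the minimum mean of 10 and were not tested. Atf4 itself averaged 667 ± 49.0 in DC and 707 ± 93.4 in WT normalized counts, and Asns, the asparagine synthetase gene that ATF4 induces, 2229.5 ± 357 in DC and 2237 ± 171 in WT (SD, n = 4 each). The smallest unadjusted p on this list was that of Ddit4, a stress-induced inhibitor of mTORC1 signalling, with 82.6, 88.3, 95.8 and 86.1 normalized counts in DC replicates 1 to 4, against 103, 129, 266 and 93.0 in WT replicates 1 to 4. WT replicate 3 was far above the other 7 libraries, and WT replicate 4 lay within the DC range. The log2 fold change of Ddit4 was -0.61 ± 0.25 (SE), with an exact permutation p of 0.0571. Chac1, a glutathione-degrading enzyme gene induced by ATF4, averaged 203 ± 62.8 in DC and 274 ± 73.2 in WT, a log2 fold change of -0.44 ± 0.22 (SE). Among 14 tested genes of eIF2 kinases and regulators, Impact, an inhibitor of the eIF2 kinase that senses uncharged transfer RNA, had 20.6, 16.7, 18.7 and 14.7 normalized counts in DC replicates 1 to 4, against 30.8, 24.8, 33.1 and 29.2 in WT replicates 1 to 4. Its genotypes did not overlap, the 1 gene of these 14 for which they did not, against 1.04% of tested genes lower in this way. Its log2 fold change was -0.71 ± 0.24 (SE), with an exact permutation p of 0.0286, the smallest possible, and a limma adjusted p of 0.9997. Impact rested on 14 to 35 reads per library. Gcn1l1, which activates the same kinase, averaged 1201 ± 175 in DC and 1054 ± 211 in WT, a log2 fold change of 0.20 ± 0.14 (SE).

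Across animals, the median cytosolic synthetase and the median ATF4 response gene were highest and lowest in the same libraries. The median deviation of the cytosolic genes from their means was 0.0059, -0.058, -0.042 and 0.10 log2 units in DC replicates 1 to 4, against -0.13, -0.037, 0.15 and 0.038 in WT replicates 1 to 4. That of the ATF4 response genes was -0.051, -0.15, -0.019 and 0.079 in DC replicates 1 to 4, against -0.20, -0.06, 0.16 and 0.15 in WT replicates 1 to 4. WT replicate 3 was the highest and WT replicate 1 the lowest in both, and within DC replicate 4 was the highest. The genotypes overlapped throughout. Both medians come from the same libraries and scaling. WT replicate 1 was also the lowest in the mitochondrial median (-0.22). The 7 cytosolic genes not reported as ATF4 targets were lowest in WT replicate 1 (-0.059) too. They were highest in DC replicate 1 (0.12), with WT replicate 3 at 0.0055.

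**Figure D4:**
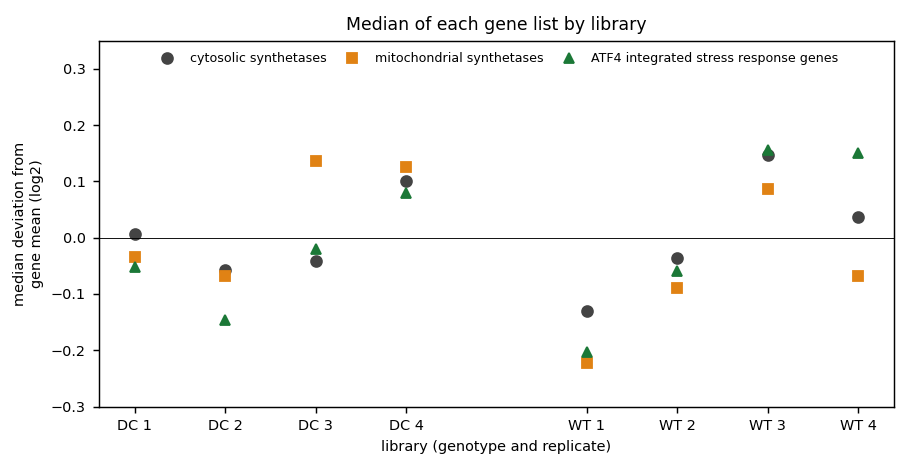
Median deviation of the tested genes of 3 lists from each gene's own mean over 8 libraries, in log2 units, by library. WT replicates 1 and 3 mark the lowest and highest cytosolic medians (-0.13 and 0.15), with all 4 DC values between them.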

How the data were processed

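Per the labels' protocols, frozen pancreas was homogenised in TRIzol and stranded libraries were made from total RNA with a TruSeq kit. The deposited values, a signal per gene and library, are counts that the authors divided by a size factor per library. Per the submitters' processing notes, the tools were STAR 2.6.0b and DESeq2 and the build GRCm38. The read counter and whether it used strand are not given here. Whole reads were recovered from the steps of each column (100% of values whole, tolerance 0.001), and no listed gene has 5 reads or more in fewer than 4 libraries. No pair of libraries of a genotype agreed within counting noise.

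Values were tested as log2(value + 1) with limma 3.58.1 (R 4.3.3), variance trend and genotype as the only term, over the 10468 genes with a mean of at least 10. Fold changes on this scale understate changes of low genes. For single genes an exact permutation test (two-sided, 70 relabellings) was added. edgeR 4.0.16 and DESeq2 1.42.0 on recovered reads, other pseudocounts (0.5 and 8), scalings, filters, robust moderation, the Y-linked level as a covariate and each library left out were alternatives. The limma script was checked on simulated counts. Exon lengths and positions are from GENCODE M21 (GRCm38), with 11781 of the IDs matched. Replicates are numbered in accession order, and the numbers pair nothing. Each genotype had 4 mice, 2 of them female and 2 male, per the design text. Members given in full were the 5 of each class with the smallest unadjusted p, the 3 most and 3 least abundant of each class per length, and any whose genotypes did not overlap (none). Hars and Vars were added after their values were seen. Partner genes named were the 2 of each partner list with the smallest unadjusted p. Atf4 and Asns were named in addition, outside this rule. The members and lists were chosen with earlier results of these data known.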

Additional observations from a re-analysis of the deposited data

Results flagged for a closer look

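In the 72 groups of 4 libraries (36 members in DC and in WT), Dixon's test singled out 1 library in 2 groups, where chance gives about 1 in 20 groups, or 3.6. Iars2, the mitochondrial isoleucine enzyme gene, stood at 212 normalized counts in DC replicate 4, against 138 to 149 in the other DC libraries. Lars2 stood at 9938 in WT replicate 2, against 2395 to 3679.9 in the other WT libraries.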

How the results depend on the processing

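No synthetase gene was called in any of the 18 alternatives. With equal library totals the median log2 fold change of cytosolic synthetases moved to 0.10 and that of Tars changed sign, to 0.0083, where the median of all genes moved to 0.11. Relative to that median the cytosolic value was -0.011 and the mitochondrial one 0.10. Leaving out 1 library at a time, the cytosolic median ran from -0.073 to 0.015, the mitochondrial from 0.037 to 0.19, and the cytosolic minus the mitochondrial from -0.17 to -0.083, with 0 calls each time. No paired analysis was possible because the labels give no shared replicate numbers. Members with few reads, such as Pars2, limit the mitochondrial comparison.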

Other observations

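Summed over Ddx3y, Eif2s3y, Kdm5d and Uty, the Y-linked level was 174 and 289.8 normalized counts in DC replicates 3 and 4 and 288 and 325 in WT replicates 3 and 4, and at most 1.67 in the other 4 libraries. No label gives the sex of a library. The median deviation of the 5 cytosolic synthetases with the TGATGNAA core was -0.092, -0.088, -0.02 and 0.13 log2 units in DC replicates 1 to 4, against -0.13, -0.078, 0.14 and 0.16 in WT replicates 1 to 4, so that the 4 libraries with Y-linked reads were the 4 highest. The same 4 libraries were the 4 highest in the median of the ATF4 response genes given in the report. They were not the 4 highest over all cytosolic synthetases, where DC replicate 1 (0.0059) was above DC replicate 3 (-0.042). Nor were they over the mitochondrial synthetases, where DC replicate 1 (-0.034) was above WT replicate 4 (-0.069). Over the mitochondrial synthetases without Lars2 they were the 4 highest, with WT replicate 4 (-0.025) above DC replicate 1 (-0.054). The same held over all 36 synthetases, with WT replicate 4 (0.029) above DC replicate 1 (-0.0099). It did not hold over the 13 reported as ATF4 targets, with DC replicate 1 (-0.0069) above DC replicate 3 (-0.03). The part of sex in these values was not tested.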
